A study of Mus musculus with 2 samples.

Results

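Carbonic anhydrase genes were examined in the gastrocnemius, the large calf muscle, of the mouse. The 10 genes Car2, Car3, Car4, Car5b, Car8, Car9, Car11, Car12, Car13 and Car14 were taken by symbol from 55536 annotated genes, and each symbol matched a single gene identifier. The samples were total RNA libraries of the muscle of adult male mice of strain 5xFAD/CAST, elsewhere in the labels 5xFAD X Cast, aged 8 to 10 months and obtained from The Jackson Laboratory. As background, 5xFAD mice carry transgenes driven by the neuronal Thy1 promoter, and CAST is an inbred strain of Mus musculus castaneus origin. There was 1 group of 2 libraries, labelled as biological replicates from different biosamples but listed under the same donor, and no group without the transgenes was analysed here. The data therefore describe levels in this muscle and the spread between 2 libraries, and no p-value is given. The gene tables held 35163970 and 35412240 expected counts in replicates 1 and 2. All 9 fast fibre markers reached 1 TPM in both libraries, and their summed level was 72389 and 70389 TPM against 1591 and 1385 TPM for the 8 slow fibre markers. Fast fibre genes thus dominated. Whether CAST alleles were lost in mapping to the reference was not tested.

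Carbonic anhydrases convert carbon dioxide and water into bicarbonate and a proton, and the reverse. Working muscle produces carbon dioxide and acid, and the enzymes help to carry both out of the fibre and into the blood. Members differ in where they sit: Car2, Car3 and Car13 encode cytosolic enzymes, Car5b a mitochondrial enzyme, Car4 an enzyme anchored to the outer face of the cell membrane, and Car9, Car12 and Car14 enzymes that span the membrane. Car8 and Car11 encode carbonic anhydrase-related proteins, which lack the enzyme activity. Catalysis needs a zinc ion held by 3 histidines.

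The coding sequence around these histidines separates the enzymes from the related proteins. Each stretch below is the reference coding sequence of a GENCODE M21 transcript, read 5′ to 3′ on the coding strand, and capitals mark the 3 codons at the zinc-binding positions. The stretches are not read from these animals, whose CAST alleles can differ from the reference. Each covers the join of exons 4 and 5, so the mm10 coordinates include the intron between them.
Car4: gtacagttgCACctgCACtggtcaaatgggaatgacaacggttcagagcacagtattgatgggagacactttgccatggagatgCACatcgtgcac
Car9: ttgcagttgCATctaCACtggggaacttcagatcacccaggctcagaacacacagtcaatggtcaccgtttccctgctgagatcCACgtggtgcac
Car14: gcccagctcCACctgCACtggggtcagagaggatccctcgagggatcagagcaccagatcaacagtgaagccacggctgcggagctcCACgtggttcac
Car5b: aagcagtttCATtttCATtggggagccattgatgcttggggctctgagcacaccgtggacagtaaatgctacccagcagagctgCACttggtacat
Car11: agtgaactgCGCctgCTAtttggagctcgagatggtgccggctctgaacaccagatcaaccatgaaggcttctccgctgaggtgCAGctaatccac
The stretch of Car4 lies at chr11:84964158-84964362 on the forward strand, that of Car9 at chr4:43508955-43509132 on the forward strand and that of Car14 at chr3:95900012-95900326 on the reverse strand. The stretch of Car5b lies at chrX:163990506-163991431 on the reverse strand and that of Car11 at chr7:45702539-45702847 on the forward strand. Car4, Car9, Car14 and Car5b carry a histidine codon (CAC or CAT) at 3 of 3 positions, and so do Car2, Car3, Car12 and Car13, whose stretches are not printed. Car8 carries one at 2 of 3 positions and Car11 at 0 of 3.

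A single gene held most of the family's RNA. Car3 (ENSMUSG00000027559.5) reached 451 TPM in replicate 1 and 381 TPM in replicate 2, where TPM (a length-corrected unit) is the deposited abundance scaled to the library total. Its mean was 416 ± 49.9 TPM (SD, n = 2 libraries, as for every mean below), which ranked it 100 among 22015 nuclear protein-coding genes. Car3 encodes a cytosolic enzyme of low activity that is typical of slow muscle fibres, liver and fat. It made up 91.4% and 90.5% of the summed TPM of the 10 genes, a mean of 91.0 ± 0.61%. The sum was 494 TPM in replicate 1 and 421 TPM in replicate 2, and the other 9 genes together came to 42.6 and 39.9 TPM. The 2 libraries thus lay close together for the 9 lesser genes as a sum, and Car3 carried 70.6 of the 73.3 TPM by which the totals differed. A gene with most of the sum also carries most of a gap in TPM, so this is not particular to Car3. On deposited TPM the median log2 ratio of replicate 2 to replicate 1 was -0.13 over all genes tested and -0.25 for Car3. Within the sum of the lesser genes opposite movements partly cancelled. From replicate 1 to replicate 2, Car11 went from 6.38 to 9.85 TPM, Car14 from 22.6 to 19.9 TPM and Car4 from 3.38 to 1.35 TPM.

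Car3 lies in a cluster of cytosolic carbonic anhydrase genes on chromosome 3 of mm10, and its neighbours were far lower. Car13 (14641727 to 14663002), Car3 (14863512 to 14872523) and Car2 (14886273 to 14900770) stand in that order on the forward strand. Car2 (ENSMUSG00000027562.12) encodes the fast, widely distributed cytosolic enzyme that abounds in red blood cells. Its level was 6.37 TPM in replicate 1 and 6.40 TPM in replicate 2, so that Car3 stood 70.9 and 59.5 times above it. Car13, another cytosolic enzyme, was at 0.32 and 0.23 TPM, from 18 and 14 counts. Car1, the red cell enzyme of the same cluster, was at 0.14 and 0.23 TPM from 4 and 6 counts.

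Among the membrane enzymes Car14 predominated. Car14 (ENSMUSG00000038526.14, chromosome 3, 95897768 to 95904691) encodes an enzyme with an extracellular catalytic domain that has been described in muscle membranes. It was at 22.6 TPM in replicate 1 and 19.9 TPM in replicate 2, a mean of 21.2 ± 1.92 TPM, second in the family. It supplied 82.0% and 90.9% of the summed TPM of Car4, Car9, Car12 and Car14. The 3′ 521 bases of its locus overlap Aph1a on the other strand, which was at 21.4 and 16.8 TPM. The library kit was directional, but no label or header used here says whether counting used the strand. The deposited posterior SD of the gene count, which rises where reads are divided among genes, was 0 in both libraries for Car14 and for all 10 members.

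Car4 (ENSMUSG00000000805.18, chromosome 11, 84957786 to 84966044) encodes the membrane-anchored enzyme found on capillary endothelium and on muscle membranes. Its level was 3.38 TPM in replicate 1 and 1.35 TPM in replicate 2, a mean of 2.37 ± 1.44 TPM. The gap between its libraries was wide relative to its level. Car9 (ENSMUSG00000028463.14, chromosome 4, 43506966 to 43513729), the membrane enzyme known for its induction by low oxygen, was at 1.42 and 0.57 TPM, from 40 and 25 counts. Car12 (ENSMUSG00000032373.15, chromosome 9, 66713686 to 66766845), a membrane enzyme best known from kidney, colon and tumours, was at 0.14 and 0.07 TPM from 6 and 5 counts, which does not resolve a difference at this depth.

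The genes of the mitochondrial enzyme and of the related protein Car8 were low, and that of the related protein Car11 was higher. Car5b, on chromosome X from 163976822 to 164027997, was at 0.75 TPM in replicate 1 and 0.64 TPM in replicate 2. Bicarbonate made in mitochondria can feed pyruvate carboxylase, whose gene Pcx stood at 36.0 and 30.5 TPM. Car8 (chromosome 4, 8143362 to 8239041), whose protein binds the inositol trisphosphate receptor in cerebellar Purkinje cells, was at 1.25 and 0.89 TPM. Car11 (ENSMUSG00000003273.14, chromosome 7, 45699843 to 45704682), a related protein known mainly from brain, ranked next after Car14. It was at 6.38 TPM in replicate 1 and 9.85 TPM in replicate 2, a mean of 8.12 ± 2.45 TPM. Its place above Car2 holds for the whole gene only. The leading coding transcript alone had a mean of 3.505 TPM for Car11 and 5.455 TPM for Car2.

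By mean level the order was Car3, Car14, Car11, Car2, Car4, Car8, Car9, Car5b, Car13 and Car12. The step from Car3 to Car14 was 19.6 fold and that from Car14 to Car11 2.62 fold, with no overlap between the libraries. Car11 and Car2 overlapped, as did Car8 with Car9 and Car9 with Car5b. These neighbours thus did not differ beyond the spread between libraries in the RSEM gene table. The other deposited quantification has a transcript table with the column layout of kallisto. There Car5b stood above Car9 and Car12 (0.34 and 0.22 TPM) above Car13 (0.27 and 0.22 TPM), and the first 6 genes kept their order. In that table Car11 did not overlap Car2, and Car8 did not overlap Car9. Of the 10 genes, 5 (Car2, Car3, Car4, Car11 and Car14) reached 1 TPM in both libraries, against 45.7% of all nuclear protein-coding genes.

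**Figure D1:**
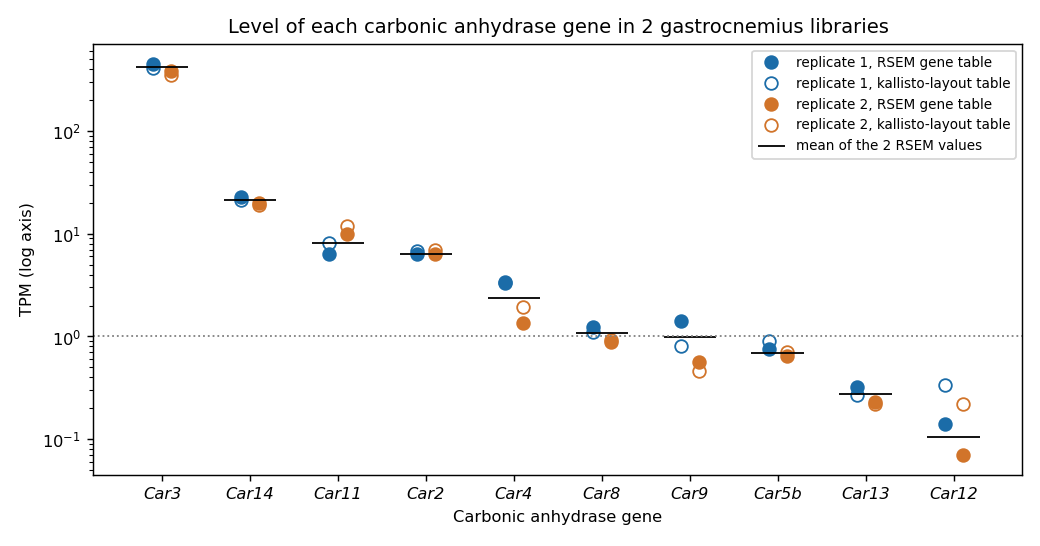
Level of the 10 carbonic anhydrase genes in TPM on a log axis, ordered by mean. Filled circles are the 2 libraries in the RSEM gene table, open circles the same libraries in the kallisto-layout table, bars the mean of the filled circles, and the dotted line 1 TPM. Car3, at 451 and 381 TPM, stands 19.6 fold above Car14, and Car4 and Car9 show wide gaps between the libraries.

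The spread between the libraries was small for the abundant members and wide for 2 of the low ones. Ratios of replicate 2 to replicate 1 were taken from expected counts scaled with edgeR's TMM factors, for the 9 members with a mean of at least 10 counts, which leaves out Car12. Of these 9 members, 2 (Car4 and Car9) were lower in replicate 2 by at least 1.5 fold and 0 were higher by that much. On deposited TPM, Car11 was higher by more than 1.5 fold, at a log2 ratio of 0.62. Over all 14370 genes so measured, 4.70% were lower and 4.31% higher. The median log2 ratio of the 9 members was -0.18, with 7 below 0, against 0.00 for all genes. Spike-in scaling moved the median of all genes to 0.09 and deposited TPM to -0.13, and with spike-ins Car5b came to 0.00. A list median nearer to 0 than these shifts therefore has no direction of its own. With 1 pair of libraries there is no replicate of a difference, and the intervals below cover counting error only.

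Car4 lay farthest from equality. It had 100 counts in replicate 1 against 40 in replicate 2, which is 2.39 fold lower after scaling. The log2 ratio was -1.26, and its 95% interval from the exact binomial distribution ran from -1.84 to -0.73. Among the 1523 genes with a mean of 50 to 100 counts, 5.98% were lower by 1.5 fold and 1.38% by 2 fold. The kallisto-layout counts of Car4 gave a log2 ratio of -1.14. Car9 had a log2 ratio of -0.62 (-1.41 to 0.13), and its interval spans 0. Among the 3105 genes with 10 to 50 counts, 16.9% were lower by 1.5 fold, so a gap of this size is common at the depth of Car9. With spike-in scaling the log2 ratio of Car9 was -0.52, short of 1.5 fold.

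The other members lay nearer to equality. Car3, with 18203 and 16286 counts, had a log2 ratio of -0.11 (-0.14 to -0.08), which was -0.02 with spike-in scaling and -0.25 on deposited TPM. Car14, with 804 and 686 counts, had -0.18 (-0.33 to -0.03). Car11, with 186 and 225 counts, was the only tested member whose interval lay above 0, at 0.33 (0.04 to 0.61). The shares over all genes given next are not matched for depth. Intervals lay below 0 for Car3, Car4 and Car14, that is 3 of 9 members, against 10.4% of all genes, and above 0 for 1 of 9 against 10.5%. These counts depended on the scaling: with spike-ins 1 interval, that of Car4, lay below 0 and 2, those of Car2 and Car11, above it, and with total counts 4 lay below 0 (Car3, Car4, Car8 and Car14) and 0 above. The interval of Car4 lay below 0 under each of these scalings. Car2 (243 and 268 counts) had a ratio of 0.19, Car5b (64 and 58) -0.09, Car8 (120 and 91) -0.35 and Car13 -0.30, each with an interval that spans 0 under TMM scaling.

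**Figure D2:**
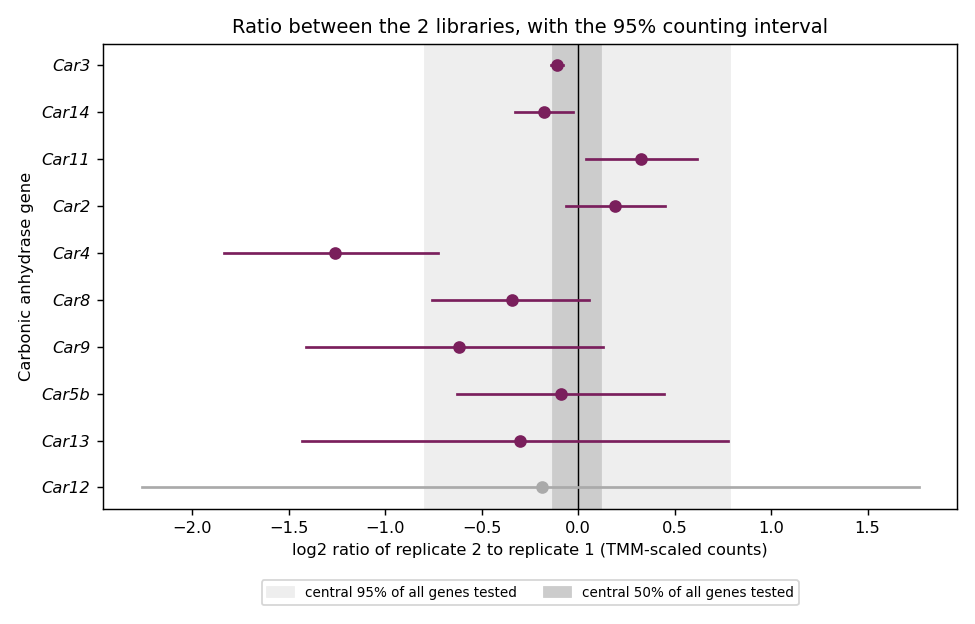
Log2 ratio of replicate 2 to replicate 1 for each carbonic anhydrase gene (points) with its exact binomial 95% counting interval (lines), ordered by mean level. Light and dark bands hold the central 95% and 50% of all 14370 genes tested, and the grey point is Car12, below 10 counts. Car4, at -1.26, is the only member outside the light band.

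Several markers of vessels were also lower in replicate 2. The 8 endothelial markers, all of them above 1 TPM in both libraries, summed to 77.2 TPM in replicate 1 and 59.5 TPM in replicate 2. Of these, 6 had log2 ratios below 0, 4 of them with the whole interval below 0, against 10.4% of all genes with such an interval. That share is over all genes with a mean of at least 10 counts and is not matched for depth, and intervals narrow as counts rise. The median was -0.16 and the range -0.79 to 0.18, and Gpihbp1 turns above 0 with spike-in scaling. Kdr, a receptor for vascular endothelial growth factor, was at -0.79 and Emcn, a capillary and venous surface protein, at -0.60. Cldn5 (0.18) and Vwf (0.11) went the other way. The most abundant of the list were Cdh5, the junction protein of endothelium (-0.42), Gpihbp1, which holds lipoprotein lipase on capillaries (-0.02), and Egfl7, a protein secreted by endothelium (-0.09). Car4, at -1.26, was below every one of the 8. Of the 6 smooth muscle and pericyte markers 3 lay below 0, Kcnj8 (-0.63), Rgs5 (-0.33) and Acta2 (-0.22), and 3 above it, Cnn1 (0.33), Myh11 (0.09) and Tagln (0.07), with a median of -0.08. The part of vessel content in the Car4 gap was not tested, and in bulk RNA fewer cells of a type and less RNA per cell cannot be told apart.

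Car3 is also known from fat and slow fibres, and the markers of both were set beside it. The 6 adipocyte markers, none of them at 0 counts, summed to 215 TPM in replicate 1 and 155 TPM in replicate 2. Of these 6, 5 had intervals below 0, against 10.4% of all genes. Their median log2 ratio was -0.38, with Lep, the hormone leptin, at -0.86, Fabp4, the fatty acid binding protein of fat cells, at -0.38 and Adipoq, the hormone adiponectin, at -0.37. The 8 slow fibre markers had a median of -0.10, with 7 below 0. The most abundant of them were the myosin light chains Myl2 (364 and 311 TPM) and Myl3 (293 and 242 TPM) and the myosin heavy chain Myh7 (226 and 220 TPM). The 9 fast fibre markers had a median of 0.09, with Myh1 (-0.18) the 1 below 0. Intervals cover counting error only and narrow as counts rise. With TMM scaling they lay below 0 for 6 of 8 slow fibre markers, against 10.4% of all genes. They lay above 0 for 8 of 9 fast fibre markers, against 10.5%. The shares over all genes are not matched for depth. Spike-in scaling moved the median of all genes to 0.09 and total counts moved it to -0.06. Shifts of that size are near both fibre medians, so these marker counts depend on the scaling. Car3 at -0.11 lay near the slow fibre median. It lay as near to the medians of the leukocyte (-0.11), Schwann cell and axon (-0.13) and smooth muscle and pericyte (-0.08) markers. It was also within the central 50% of all genes tested (-0.13 to 0.12), so this nearness is not particular to slow fibres. Of the 6 adipocyte markers only Cfd (0.26), a complement factor made by fat, lay above Car3. For Car2, the erythroid markers summed to 370 and 300 TPM, with a median log2 ratio of -0.21 over 5 genes. Alas2 (-0.38), Hba-a1 (-0.29) and Hbb-bs (-0.21) lay below 0, and Hbb-bt (0.04) and Hba-a2 (0.06) above it. Car2 was at 0.19 with an interval that spans 0 under TMM scaling, and at 0.01 on deposited TPM. Of 4 fibroblast markers the median was 0.19, of 5 Schwann cell and axon markers -0.13 and of 4 leukocyte markers -0.11. How much of Car3 or Car2 came from each cell type was not tested.

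**Figure D3:**
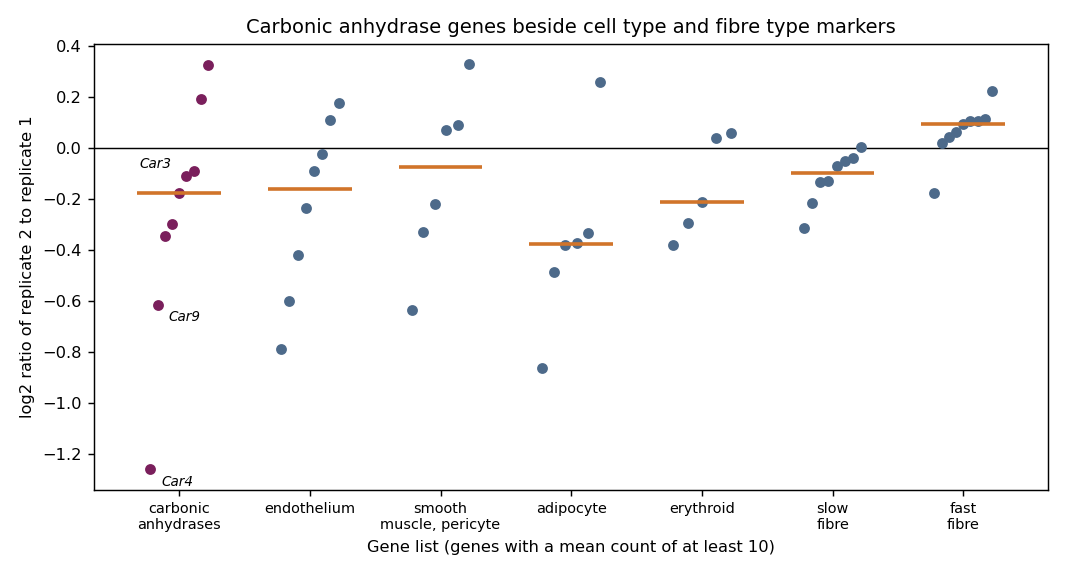
Log2 ratios of replicate 2 to replicate 1 for the 9 carbonic anhydrase genes with a mean of at least 10 counts and for the genes of 6 marker lists (points, 1 per gene, sorted within a list), with the median of each list as an orange bar. Car4 at -1.26 is lower than every marker shown. Car3 at -0.11 lies near the medians of the slow fibre markers (-0.10) and of the smooth muscle and pericyte markers (-0.08).

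Annotated transcripts differed in how firmly they carried a gene's level. Car3 rested on Car3-201, the protein-coding transcript of 1679 bases, which held 99.3% and 98.9% of its TPM in the RSEM table. In the kallisto-layout table the same transcript held 90.3% and 93.9%, and 2 retained-intron transcripts took the rest. Car2-201 held 83.0% and 87.8% of Car2, with Car2-202, a shorter coding transcript, as the next. Car8 and Car13 have 1 annotated transcript each, and Car5b was assigned wholly to Car5b-201 in the RSEM table. The coding transcript Car4-201 was at 3.38 and 1.24 TPM in the RSEM table and at 3.29 and 1.19 TPM in the kallisto-layout table, so the gap of Car4 was present in its coding transcript in both. In replicate 2 the kallisto-layout table gave noncoding classes 37.6% of Car4, against 8.15% in the RSEM table. The few counts of Car12 fell on coding and retained-intron transcripts, with the latter at 64.3% and 28.6% of its RSEM TPM.

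Car14 was divided between 2 coding transcripts. Car14-201, of 1709 bases, was at 16.5 TPM in replicate 1 and 11.3 TPM in replicate 2, and the shorter Car14-203 was at 3.68 and 5.82 TPM. The 2 transcripts went opposite ways between the libraries in the RSEM table. In the kallisto-layout table both were lower in replicate 2, at 14.8 and 11.7 TPM for Car14-201 and 4.64 and 4.10 TPM for Car14-203. The opposite movement is thus a feature of 1 quantification only.

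For Car11 and Car9 the gene's TPM differed between the libraries by more than its counts. Car11 had 1.25 times the scaled counts in replicate 2 but 1.54 times the TPM, and its effective length was 1140 bases in replicate 1 and 841 bases in replicate 2. The coding transcript Car11-201 was at 3.88 TPM in replicate 1 and 3.13 TPM in replicate 2, lower in the library where the gene was higher. Transcripts annotated as retained introns or as targets of nonsense-mediated decay, which yield no full protein, held 39.1% and 68.2% of Car11 in the RSEM table and 64.1% and 77.4% in the kallisto-layout table. In Car9 the effective length was 1103 and 1605 bases, with Car9-204, a processed transcript of 334 bases, given 0.69 TPM in replicate 1 from 4.12 counts and 0 in replicate 2. The coding transcript Car9-201 alone was at 0.73 and 0.46 TPM. Effective lengths that differed between the libraries by 1.3 fold or more occurred in 2 of 9 members and in 8.27% of all genes.

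**Figure D4:**
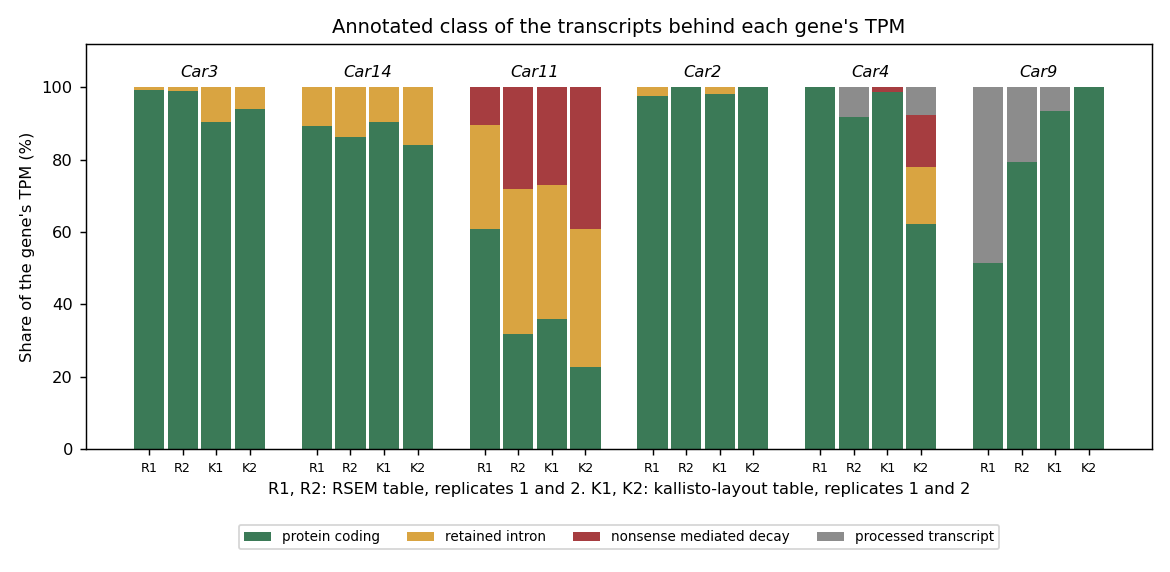
Share of each gene's TPM, in percent, held by annotated transcript classes for Car3, Car14, Car11, Car2, Car4 and Car9. R1 and R2 are replicates 1 and 2 in the RSEM table, K1 and K2 the same in the kallisto-layout table. Car3 is almost wholly protein coding, at 99.3% and 98.9% in the RSEM table, whereas noncoding classes hold 39.1% to 77.4% of Car11.

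The 2 tables gave similar levels for most members. TPM (with 0.1 added) differed between the tables by 1.5 fold or more in both libraries for 0 of 9 members, against 4.89% of all genes, and in at least 1 library for 1 of 9, Car9, against 10.6%. Car12, at very low counts, was at 0.14 and 0.07 TPM in the RSEM table and at 0.34 and 0.22 TPM in the kallisto-layout table. With 0.1 added it was 1.82 and 1.90 times higher in the latter. The added 0.1 is about as large as its level and makes these ratios smaller than those of the TPM themselves. Locus overlaps were minor for the other members. Gm12454, antisense to Car9 over 1782 bases, had 0 counts in both libraries, and Gm11799, a processed pseudogene within Car8, had 1 and 0 counts.

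Carbonic anhydrase genes outside the 10 were low or not detected. Of Car1, Car5a, Car6, Car7, Car10 and Car15, 0 reached 1 TPM. Car7, a cytosolic enzyme known from neurons, was the highest at 0.53 and 0.56 TPM, from 20 and 24 counts. Car15, a membrane-anchored enzyme, was at 0.25 and 0.08 TPM, and Car6, the secreted enzyme of saliva, had 0 and 1 count. Car5a, the liver counterpart of Car5b, and Car10, a related protein, had 0 counts in both libraries of the RSEM table. A count of 0 allows up to 3 counts, equal to 0.156 and 0.147 TPM for Car5a and 0.054 and 0.051 TPM for Car10. The kallisto-layout table gave 0 and 0.030 TPM for Car5a and 0.027 and 0.090 TPM for Car10, so for Car10 in replicate 2 it lay above that limit. Of the receptor phosphatases that carry an inactive carbonic anhydrase-like domain, Ptprg was at 8.59 and 6.48 TPM and Ptprz1 at 0.24 and 0.08 TPM, the latter from 9 and 13 counts, which go the other way.

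The genes that move or use the products of the reaction were expressed at a wide range of levels. Of 11 bicarbonate and chloride/bicarbonate transporter genes 5 reached 1 TPM in both libraries, led by the sodium bicarbonate cotransporter Slc4a4 (8.99 and 10.99 TPM), the anion exchanger Slc26a6 (11.3 and 8.69 TPM) and the anion exchanger Slc4a2 (4.77 and 5.13 TPM). Of 10 genes for proton, lactate, water or gas passage 7 did, led by Bsg, the partner of lactate transporters (261 and 253 TPM), the lactate exporter Slc16a3 (147 and 143 TPM) and the water channel Aqp1 (115 and 85.1 TPM). Of 9 genes for bicarbonate-using enzymes 8 did, led by Acacb (72.4 and 68.5 TPM), Pcx and Pccb (28.7 and 25.03 TPM). Acacb encodes the acetyl-CoA carboxylase that sits on muscle mitochondria, and Pccb a subunit of propionyl-CoA carboxylase. In these 3 lists 0 genes with at least 10 counts differed by 1.5 fold between the libraries. Over all 14370 genes tested, 4.70% were lower and 4.31% higher by that much. A count of 0 in lists this short therefore does not set them apart from other genes. Aqp1, an endothelial gene as well, had a log2 ratio of -0.30. Bsg, Slc16a3, Aqp1 and Acacb thus stood well above every carbonic anhydrase gene but Car3, whereas the leading bicarbonate transporters lay below Car14.

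Car9 is a textbook target of hypoxia-inducible factors, whose binding sites often hold the letters ACGTG. Only these letters were searched, so a window without them can still hold another form of the site. Among the RefSeq promoter windows of build GRCm38.p6, which run from 250 bases before to 50 bases after a gene's start, 19.6% of 32851 hold ACGTG on either strand. That count includes windows with the overlapping E-box letters CACGTG, present in 7.15%. Of the 10 members 6 had windows, 7 in all, and 3 windows held ACGTG, those of Car4, Car9 and Car14, each on the reverse strand of the gene. They are shown because Car9 is the member tied to hypoxia, with capitals for the match as it reads on the gene's own strand.
Car9: cctatttccgatgCACGTacagcccgtcca
Car14: ccacccccctcctCACGTacaccggtttcg
Car4: aggagccgactccCACGTctagccgtccgg
These stretches lie at chr4:43506995-43507024 on the forward strand for Car9, at chr3:95904676-95904705 on the reverse strand for Car14 and at chr11:84957743-84957772 on the forward strand for Car4. A match of letters is a description and not a bound site. All 10 hypoxia-responsive genes of the list reached 1 TPM in both libraries, with Ldha at 1295 and 1260 TPM, Pgk1 at 422 and 381 TPM and Bnip3 at 106 and 85.4 TPM. Their median log2 ratio was 0.00, and 0 of 10 differed by 1.5 fold between the libraries. Of all genes tested, 4.70% were lower and 4.31% higher by that much, so 0 of 10 does not set this list apart.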

How the data were processed

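Per the file headers, the deposited gene and transcript tables in RSEM layout hold expected counts, TPM and posterior SDs, and a second deposited transcript table, in kallisto layout, holds estimated counts and TPM. The authors' build was mm10 with annotation M21, per the text notes deposited with the files. No label or header used here names the aligner or a program version. Per the labels' protocols, 300 ng of RNA entered a directional kit with ERCC spike-ins and reduced ribosomal RNA.

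Kallisto-layout values were summed per gene. Spike-in rows were left out of library sizes. Expected counts were rounded, scaled with TMM (edgeR 4.0.16) over genes with a mean of at least 10 counts, and given a prior of 0.5 counts. The genes and lists were chosen with earlier results of these data known. Named genes are all members, the 3 highest of each pathway list and any of its genes of at least 100 counts that differed 1.5 fold. Car5a, Car6, Car10, the overlapping genes and the cell type markers named fall outside that rule and were picked once their values were known. Alternatives were DESeq2 1.42.0 size factors, total counts, spike-in totals, deposited TPM, the kallisto-layout table, other minimums and priors, and each library alone. The ratio step was tested on simulated counts. Biopython 1.88 aligned translated transcripts to place the zinc codons. R 4.3.3, pandas 2.3.3 and matplotlib 3.10.9 were used.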

Additional observations from a re-analysis of the deposited data

How the results depend on the processing

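The summed level of the 10 genes ran from 421 to 494 TPM when either library was left out, was 422 TPM in the kallisto-layout table and 41.2 TPM without Car3, an alternative chosen after seeing the data. The share of Car3 ran from 90.5% to 91.4% over single libraries, was 89.9% in the kallisto-layout table and 92.0% by counts. The number of members at 1 TPM ran from 5 to 7 over single libraries and was 8 at a minimum of 0.5 TPM. The number of members differing 1.5 fold between libraries, 2, became 3 on deposited TPM, with Car11 higher, 1 with spike-in scaling, 1 at 2 fold and 0 at a mean of at least 100 counts, because Car4 and Car9 lie below that minimum. The scalings of the counting intervals were compared after seeing the data. The log2 ratio of Car4 ran from -1.32 to -1.14 over 7 alternatives. Deposited TPM shifted the median log2 ratio of all genes to -0.13. Signs of the log2 ratio changed for Car12 (0.51) in the kallisto-layout table and for Car5b (0.00) with spike-in scaling; the cause was not tested. No paired analysis was possible because there is 1 group. Depth limits Car9, Car12 and Car13, which had 40 counts or fewer in each library.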
